A study of Homo sapiens with 6 samples.

Results

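The genes described here are 32 that make, sense or handle sterols and fatty acids, followed in the human myeloma line KMS27 with and without overexpression of TAZ. They were chosen by symbol, and every transcript that the authors' deposited table pairs with one of the 32 symbols was used. This gave 370 of 215170 transcripts, on 35 of 63677 Ensembl gene IDs, since ACLY, EBP and NSDHL each have a second ID. The second IDs of EBP and NSDHL held the same values as the first in each library. A level printed for 1 ID of these 3 genes may thus be a part of the gene's total. KMS27, a cell line, was derived from malignant plasma cells. Sequencing of total RNA, depleted of ribosomal RNA, covered 3 libraries labelled HA-TAZ and 3 labelled wild type. TAZ is a transcriptional coactivator of the Hippo pathway, encoded by WWTR1, and HA is a peptide tag. Wild type here is the treatment label, although the titles of those samples also carry HA. Whether they hold a construct, which vector carried HA-TAZ and whether the HA-TAZ cells are 1 clone are not stated in the labels.

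The HA-TAZ columns match the sample titles and are numbered as there (HA-TAZ 1 to 3). The remaining 3 columns bear a name found in no label. They were assigned to wild type by elimination and are lettered here as control a to c. The labels speak of libraries in triplicate and do not say that these came from separate cultures, so p-values measure the spread between these libraries, which may be technical.

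Cells make cholesterol from acetyl-CoA through mevalonate, isoprenoids and squalene, and make fatty acids from acetyl-CoA and malonyl-CoA. Both routes are controlled by the SREBP transcription factors, which SREBF1 and SREBF2 encode. SREBPs are held in the endoplasmic reticulum by SCAP and the INSIG proteins while sterols are plentiful. When sterols fall, SCAP carries them to the Golgi, where proteases release the active factor. SREBP-2 mainly drives sterol genes, SREBP-1c mainly fatty acid genes, and the liver X receptors, which sense oxysterols, drive SREBF1 and the cholesterol exporter ABCA1. Plasma cells depend on membrane lipid for the large endoplasmic reticulum in which they make antibody.

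The values are TPM, abundances corrected for transcript length that state each transcript's share of its library. They were summed per gene. Each library was then divided by a median-of-ratios factor, 0.866, 0.967 and 0.890 for HA-TAZ 1 to 3 and 1.21, 1.09 and 1.06 for control a to c, and the results are called rescaled TPM. Without this step the median gene was lower in HA-TAZ, by a log2 difference of −0.27, against −0.03 with it. Differences are HA-TAZ minus control in log2(rescaled TPM + 1), called at a Benjamini-Hochberg adjusted p under 0.05 from limma over all 22651 genes whose TPM averaged 1 or more. This scale understates the change of genes of low TPM. All 35 gene IDs passed that filter. WWTR1 was at 293, 306 and 293 TPM in HA-TAZ 1 to 3 and at 2.69, 2.22 and 1.69 TPM in control a to c, so the groups stood apart as labelled. All 9 plasma cell markers examined had a mean of at least 1 TPM, with sums of 591 to 644 TPM in HA-TAZ and 691 to 795 TPM in controls. These sums are of TPM as deposited, and after rescaling the median difference of the 9 was −0.02. CD38 was called lower at −0.61 (limma, adjusted p = 0.0226) and SLAMF7 higher at 0.95 (limma, adjusted p = 0.0128), and 7 were not called. Of 18 markers of other cell types, KRT8 and COL1A1 had a mean of at least 1 TPM. The 3 T cell markers summed to 0.0476 to 0.167 TPM in HA-TAZ and 0.386 to 0.559 TPM in controls, and the 3 epithelial markers to 1.91 to 2.99 and 3.69 to 4.8 TPM. The part of these RNAs in the results was not tested. The depth of each library was unknown. Averages in the authors' deposited table correspond to about 52795500 estimated counts per library, and for the members to between 209 (FADS2) and 51758 (SCD).

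In HA-TAZ cells 5 members fell, and they were the transcription factor gene SREBF1, its inhibitor INSIG1, the fatty acid enzymes ACACA and SCD, and the exporter ABCA1. None of the 18 genes of the mevalonate and squalene-to-cholesterol steps was called in either direction. Of the 35 gene IDs, 5 were called lower, against a background of 2.63% of all tested genes and 2.18% of the tested protein-coding genes. The second ID of ACLY was called higher, against a background of 4.67% of all tested genes. The median difference over the 35 IDs was 0.01, beside −0.03 over all tested genes. In rescaled TPM, every HA-TAZ library lay below every control for 9 of the 35 IDs (18.3% of all tested genes) and above every control for 4 (20.2% of all tested genes). With 1 ID per gene these were 9 and 2 of 32, and 5 were called lower and none higher. The rescaled TPM of the 32 genes was also summed over 1 ID each. This sum was 991, 979 and 972 in HA-TAZ 1 to 3 and 993, 1066 and 1054 in control a to c. The HA-TAZ totals thus all lay below the control totals, with control a just above HA-TAZ 1. As deposited, the sums were 858, 947 and 865 TPM in HA-TAZ 1 to 3 and 1200, 1162 and 1115 TPM in control a to c. In bulk RNA, less of an RNA in each cell and fewer cells with it cannot be told apart.

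**Figure D1:**
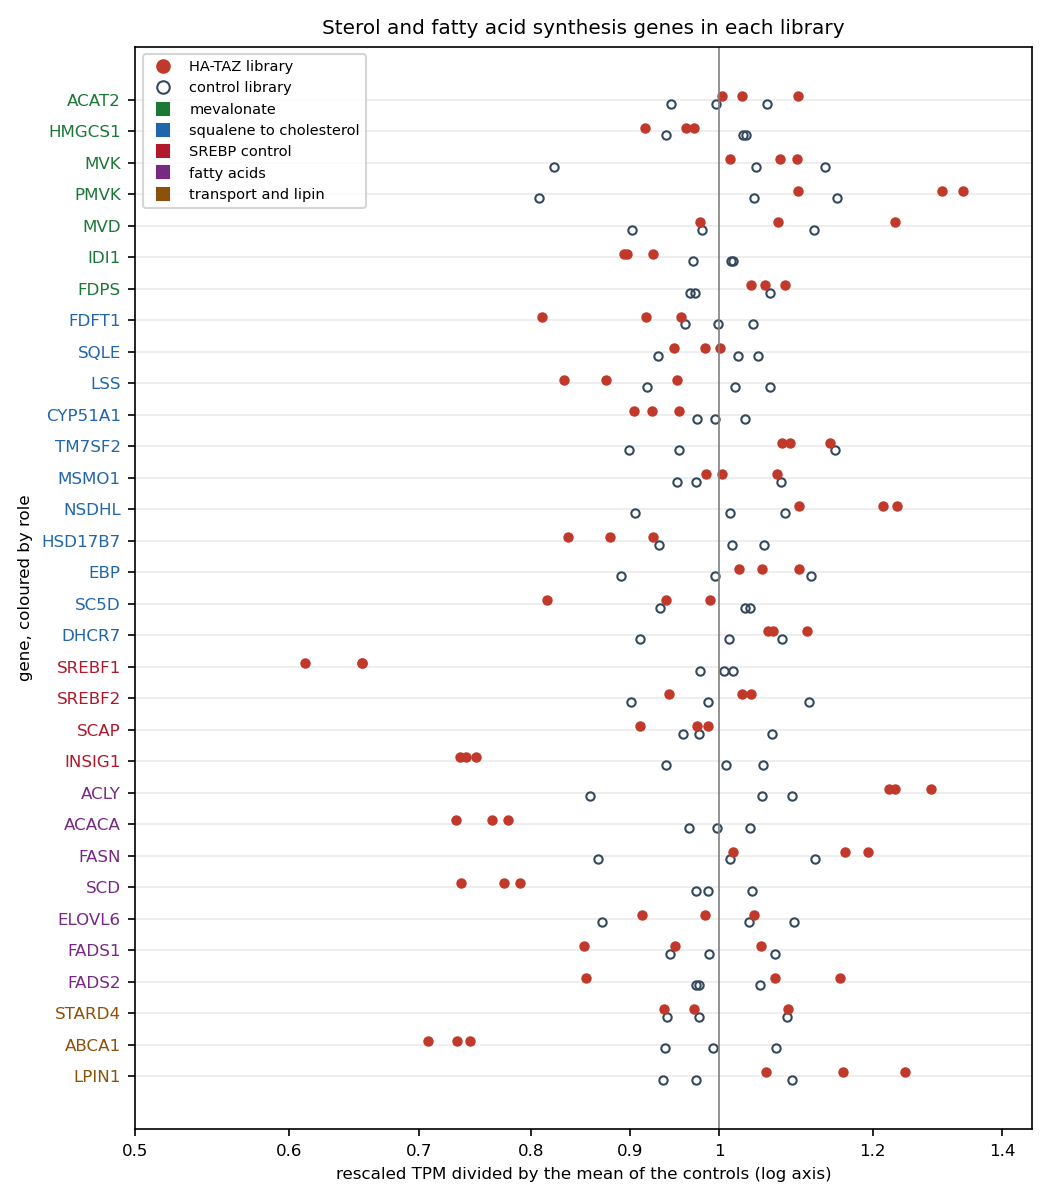
Rescaled TPM of each of the 32 genes in each library, divided by the mean of the 3 controls (log axis, gene names coloured by role), with filled points for HA-TAZ and open points for controls. The HA-TAZ points of SREBF1, INSIG1, ACACA, SCD and ABCA1 lie left of all their control points, while those of most mevalonate and cholesterol genes overlap their controls.

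The genes that control SREBP held the largest difference. SREBF1, which encodes SREBP-1, was at 41.5, 46.3 and 39.8 TPM in HA-TAZ 1 to 3 and at 90.0, 78.0 and 77.8 TPM in control a to c. All HA-TAZ libraries were lower than all controls, before and after rescaling. In rescaled TPM the means were 46.8 ± 1.81 and 73.2 ± 1.5 (SD, n = 3 each), a ratio of 0.64. SREBF1 fell by 0.63 on the log2 scale with a standard error of 0.05 (limma, adjusted p = 0.00492). It was the member whose call held in every fit that left out 1 library, at adjusted p from 0.020 to 0.037 (limma).

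INSIG1, which encodes a sterol sensor that retains SCAP and is itself an SREBP target, was at 29.4, 32.5 and 29.7 TPM in HA-TAZ 1 to 3 and at 51.5, 49.9 and 50.6 TPM in control a to c. The groups did not overlap, and the HA-TAZ libraries lay within a few TPM of each other. It fell by 0.42 on the log2 scale with a standard error of 0.05 (limma, adjusted p = 0.0194). This call was lost in 4 of 6 fits that left out 1 library (HA-TAZ 1, HA-TAZ 2, HA-TAZ 3 or control b), where the adjusted p reached 0.084 (limma).

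SREBF2, which encodes SREBP-2, and SCAP, which escorts the SREBPs, were not called. SREBF2 was at 23.5, 23.8 and 23.9 TPM in HA-TAZ 1 to 3 and at 28.5, 28.1 and 30.7 TPM in control a to c. After rescaling its groups overlapped, with a log2 difference of 0.01 and a standard error of 0.09 (limma, adjusted p = 0.959). The difference for SCAP was −0.06 with a standard error of 0.06 (limma, adjusted p = 0.562). Thus within this role the gene of 1 SREBP was called lower and that of the other was not, and whether the 2 differences differ was not tested. Summed over the 4 genes, rescaled TPM was 126, 125 and 123 in HA-TAZ 1 to 3 and 161, 161 and 169 in control a to c. That sum includes SREBF1 and INSIG1, both called lower. The rescaled means in HA-TAZ and controls were 26.2 and 26.1 for SREBF2 and 17.9 and 18.7 for SCAP.

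The promoters of SREBF1 and INSIG1, both lower, and of SREBF2 are shown because SREBPs are known to act on sterol regulatory elements near the start of their target genes. Each sequence runs 5′ to 3′ on the gene's strand from 250 bases before to 50 bases after a RefSeq transcription start (GRCh38.p14). They lie at chr17:17836937-17837236 (minus strand) for SREBF1, chr7:155297628-155297927 (plus strand) for INSIG1 and chr22:41832855-41833154 (plus strand) for SREBF2. Capitals mark matches on either strand to 4 motifs, the sterol regulatory element searched as TCACNCCAC, the E-box CACGTG, the CCAAT box CCAAT and the GC box GGGCGG.
SREBF1: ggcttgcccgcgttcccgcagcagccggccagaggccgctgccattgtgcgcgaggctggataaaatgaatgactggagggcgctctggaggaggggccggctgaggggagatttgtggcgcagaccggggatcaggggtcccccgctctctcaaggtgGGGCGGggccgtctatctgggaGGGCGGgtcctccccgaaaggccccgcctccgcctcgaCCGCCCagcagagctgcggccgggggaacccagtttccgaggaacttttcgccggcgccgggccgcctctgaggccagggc
INSIG1: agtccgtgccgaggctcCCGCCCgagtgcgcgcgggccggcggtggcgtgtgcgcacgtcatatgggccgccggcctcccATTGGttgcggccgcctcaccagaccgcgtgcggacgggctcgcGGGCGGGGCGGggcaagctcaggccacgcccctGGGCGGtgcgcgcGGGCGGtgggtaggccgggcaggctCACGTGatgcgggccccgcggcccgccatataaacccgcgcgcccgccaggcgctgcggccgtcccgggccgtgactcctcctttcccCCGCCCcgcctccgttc
SREBF2: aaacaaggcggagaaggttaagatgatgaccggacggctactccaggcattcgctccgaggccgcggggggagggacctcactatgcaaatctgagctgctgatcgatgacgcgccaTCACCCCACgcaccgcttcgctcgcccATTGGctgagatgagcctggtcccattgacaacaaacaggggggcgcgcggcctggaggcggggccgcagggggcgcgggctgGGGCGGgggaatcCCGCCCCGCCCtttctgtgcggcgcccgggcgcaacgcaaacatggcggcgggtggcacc
The SREBF1 window held 3 GC box matches and no match to the other motifs, and the INSIG1 window held 1 E-box, 1 CCAAT box and 6 GC box matches. No other start of SREBF1 was searched. Whether SREBP-1c RNA begins at the start shown was not examined, so the window may not be its promoter. The SREBF2 window held the sterol regulatory element match, beginning 133 bases before the start, beside a CCAAT box beginning 106 bases before it. RefSeq promoters of 300 bases were present for 28 of the 32 genes, at 39 starts. The sterol regulatory element was matched for 3.57% of these 28 genes, namely SREBF2, and for 1.39% of the 27305 genes with a promoter in the table. The E-box was matched for 17.9% against 8.78%, the CCAAT box for 71.4% against 39.7%, and the GC box for 96.4% against 48.3%. The 27305 genes were not limited to expressed or protein-coding genes, while all members were expressed, so the 2 sets are unlike. Of the 5 lower genes, none had the sterol regulatory element letters in the window, 2 had an E-box (INSIG1 and ABCA1), 3 a CCAAT box and 5 a GC box. The sterol regulatory element letters were matched for 1 of the 28 genes, so their absence in the 5 cannot show that these lack such an element. These are matches of letters in a short window, and the data hold no measure of binding.

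Among the 7 fatty acid genes, ACACA and SCD fell, while ACLY lay higher and FASN was not called. ACACA encodes acetyl-CoA carboxylase 1, which makes malonyl-CoA and is the committed step of the route. Its TPM was 32.5, 38.7 and 34.9 in HA-TAZ 1 to 3 and 59.9, 58.1 and 54.2 in control a to c. The groups did not overlap on either scale. ACACA fell by 0.39 on the log2 scale with a standard error of 0.05 (limma, adjusted p = 0.0167). The call was lost in 5 of 6 fits without 1 library, held without control a, and the adjusted p ran from 0.037 to 0.076 over these fits (limma).

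SCD encodes the desaturase that turns saturated into monounsaturated fatty acids, and its mean TPM was the highest of the members. Its TPM was 115, 126 and 110 in HA-TAZ 1 to 3 and 198, 191 and 176 in control a to c. Each control was above each HA-TAZ library, also after rescaling, where the means were 129 ± 4.69 and 168 ± 5.89 (SD, n = 3 each). SCD fell by 0.38 on the log2 scale with a standard error of 0.05 (limma, adjusted p = 0.0185). Without 1 library the call held when control a was left out and was lost in the other 5 fits, with adjusted p up to 0.079 (limma). Its promoter, at chr10:100346983-100347282 of GRCh38.p14 (plus strand), is shown with the same motifs in capitals, as that of the fatty acid enzyme with the highest level.
SCD: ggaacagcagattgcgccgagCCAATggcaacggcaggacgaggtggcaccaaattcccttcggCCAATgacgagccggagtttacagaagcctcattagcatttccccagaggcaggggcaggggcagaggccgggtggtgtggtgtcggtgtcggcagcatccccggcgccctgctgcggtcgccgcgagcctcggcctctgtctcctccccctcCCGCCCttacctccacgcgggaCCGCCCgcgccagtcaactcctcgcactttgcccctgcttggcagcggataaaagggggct
It held 2 CCAAT box matches in its upstream part and 2 GC box matches close to the start.

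ACLY encodes ATP citrate lyase, which supplies acetyl-CoA to both routes. Its reference gene ID was at 86.0, 95.4 and 92.2 TPM in HA-TAZ 1 to 3 and at 83.6, 92.5 and 92.9 TPM in control a to c. As deposited the groups overlapped, and after rescaling each HA-TAZ library lay above each control, with a difference of 0.32 and a standard error of 0.10 (limma, adjusted p = 0.0901). With coding transcripts only, this ID was called higher at 0.41 (limma, adjusted p = 0.028), where 28.6% of all genes so tested were. With estimated counts per gene it was called higher at 0.30 (limma, adjusted p = 0.024), where 13.6% were. Both settings are described below and were chosen after seeing the data. The second ID of ACLY, at 28.6, 33.0 and 29.1 TPM in HA-TAZ 1 to 3 and 29, 27.3 and 29.3 TPM in control a to c, rose by 0.37 with a standard error of 0.06 (limma, adjusted p = 0.0356). ENST00000564506.1, which held 100% of the TPM of the second ID, had the same TPM in each library as ENST00000352035.2 of the reference ID. The call of the second ID is therefore no measurement apart from that transcript. In the authors' deposited table ENST00000352035.2 had an effect of 0.283 (q = 2.40e-05). Reads of a gene with 2 IDs can be split between them, so each value is uncertain. The call of the second ID held without control c and was lost in the other 5 fits without 1 library, where the adjusted p reached 0.118 (limma). With TPM summed per symbol the adjusted p was 0.060 (limma).

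FASN, the fatty acid synthase that acts after ACACA, was at 37.6, 36.8 and 39.7 TPM in HA-TAZ 1 to 3 and at 39.2, 41.3 and 44.3 TPM in control a to c. Its groups overlapped, and the log2 difference was 0.17 with a standard error of 0.11 (limma, adjusted p = 0.347). The elongase ELOVL6 and the polyunsaturated fatty acid desaturases FADS1 and FADS2 had differences of −0.03, −0.07 and 0.02, none called. FADS2 was the lowest of the 32 genes, at 1.73 to 2.47 TPM over the 6 libraries.

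The mevalonate genes were at similar rescaled levels in the groups. All 7, which carry acetyl-CoA to farnesyl diphosphate, had differences from −0.14 to 0.31, with none called and 5 above 0. PMVK, phosphomevalonate kinase, had the largest difference of the role. Its TPM was 24.0, 22.6 and 25.2 in HA-TAZ 1 to 3 and 20.7, 24.1 and 25.8 in control a to c. The groups overlapped, and the difference of 0.31 had a standard error of 0.14 (limma, adjusted p = 0.204). FDPS, the farnesyl diphosphate synthase and the highest gene of this role, was at 86.3, 100.4 and 90.2 TPM in HA-TAZ 1 to 3 and at 112, 111 and 98.6 TPM in control a to c. Its difference was 0.08 with a standard error of 0.05 (limma, adjusted p = 0.324). IDI1, the isopentenyl diphosphate isomerase, was the gene of this role whose rescaled HA-TAZ libraries (25.3 to 26.1 TPM) all lay below its controls (27.4 to 28.7 TPM). Its difference was −0.14 with a standard error of 0.04 (limma, adjusted p = 0.104). The synthase HMGCS1, the thiolase ACAT2, and MVK and MVD, which encode mevalonate kinase and the diphosphomevalonate decarboxylase, had differences from −0.07 to 0.12.

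The 11 genes from squalene to cholesterol had differences from −0.17 to 0.22, with none called. NSDHL, a sterol dehydrogenase, had the largest. Its TPM was 10.8, 12.3 and 10.1 in HA-TAZ 1 to 3 and 11.3, 12.2 and 11.0 in control a to c. After rescaling its HA-TAZ libraries lay just above its controls, with a difference of 0.22 and a standard error of 0.09 (limma, adjusted p = 0.144). EBP, at a mean of 26.1 TPM on each of its 2 IDs, had the highest TPM of this role if both are added. Per single ID the highest was CYP51A1, the lanosterol demethylase. CYP51A1 was at 33.0, 34.9 and 32.8 TPM in HA-TAZ 1 to 3 and at 48.1, 44.9 and 41.2 TPM in control a to c. After rescaling the groups were still apart, at 36.1 to 38.1 and 38.9 to 41.2 TPM, with a difference of −0.11 and a standard error of 0.04 (limma, adjusted p = 0.175). FDFT1, the squalene synthase, and HSD17B7, a sterol ketoreductase, were the other 2 genes whose HA-TAZ libraries all lay below the controls, with differences of −0.16 and −0.17. LSS, the lanosterol synthase, and SC5D, a sterol desaturase, lay at −0.16 and −0.11 with overlap. The squalene epoxidase SQLE, the methyl oxidase MSMO1, the isomerase EBP and the reductases TM7SF2 and DHCR7 lay from −0.03 to 0.12.

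In the last role, ABCA1, which exports cholesterol from the cell, fell and the others were not called. ABCA1 was at 4.99, 5.77 and 5.39 TPM in HA-TAZ 1 to 3 and at 9.23, 9.49 and 8.54 TPM in control a to c. The groups were apart on both scales. ABCA1 fell by 0.40 on the log2 scale with a standard error of 0.07 (limma, adjusted p = 0.0394), and the call was lost whichever library was left out, with adjusted p from 0.069 to 0.130 (limma). LPIN1, a phosphatidate phosphatase of triglyceride synthesis, was at 37.1, 44.6 and 34.8 TPM in HA-TAZ 1 to 3 and at 41.9, 39.3 and 42.7 TPM in control a to c, with a difference of 0.20 and a standard error of 0.09 (limma, adjusted p = 0.174). STARD4, a sterol carrier, had a difference that rounds to 0 with a standard error of 0.08 (limma, adjusted p = 0.981).

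**Figure D2:**
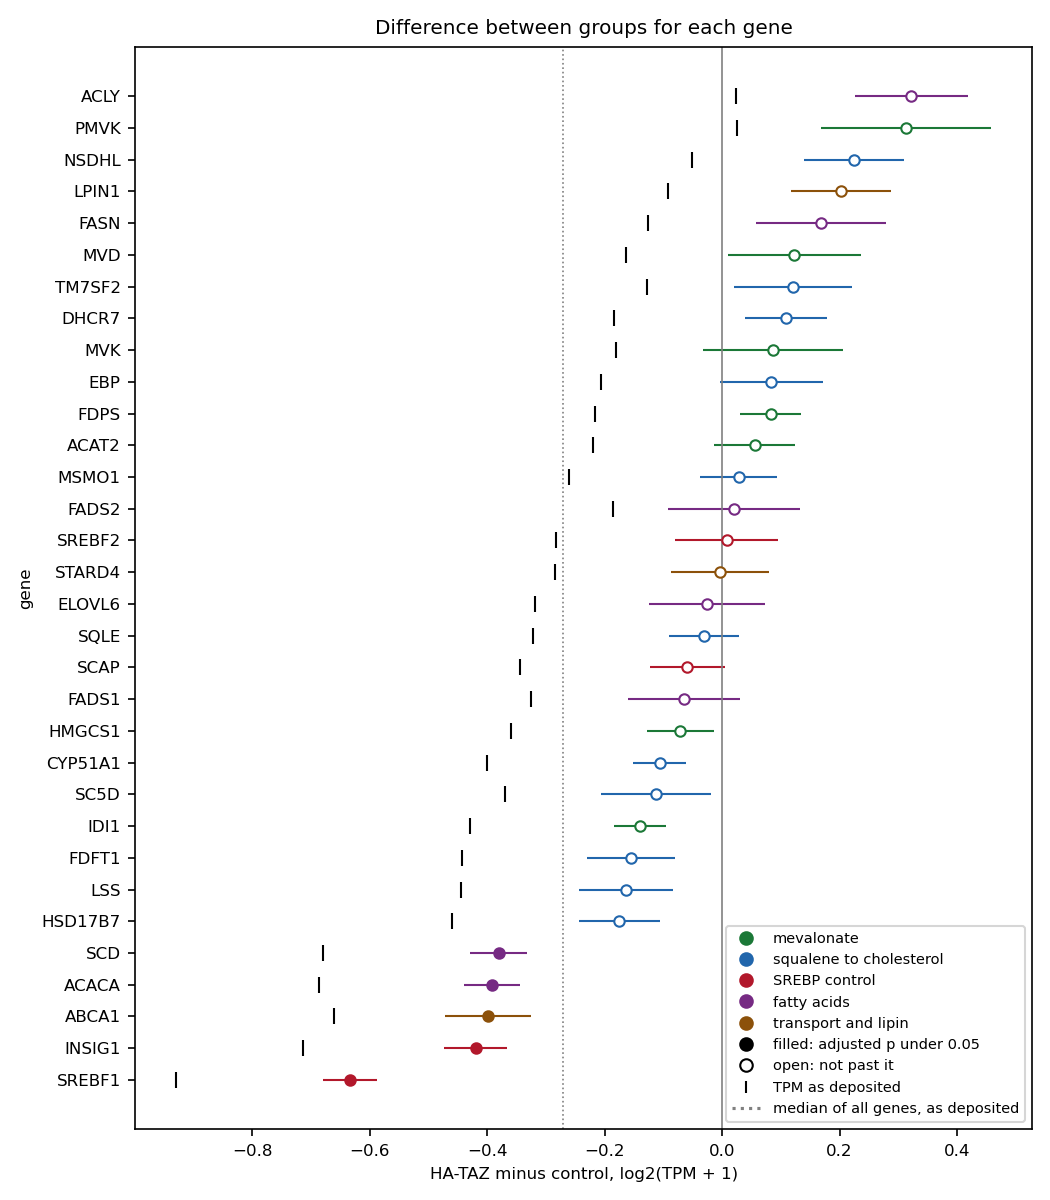
HA-TAZ minus control in log2(rescaled TPM + 1) for the 32 reference gene IDs, with standard errors as bars, filled points for an adjusted p under 0.05 and ticks for the difference with TPM as deposited. The ticks lie left of the points for each gene, around the dotted line at −0.27 that marks the median of all genes as deposited.

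The number of called members changed with the scaling. With TPM as deposited, 12 of the 35 IDs were called lower, where the background was 13.5% of all tested genes, and none was called higher. The median member was then at −0.28, close to the −0.27 of all genes. SREBF1, INSIG1, ACACA, SCD and ABCA1 were then at −0.93, −0.71, −0.69, −0.68 and −0.66, all still called (limma). HMGCS1, IDI1, LSS, CYP51A1, MSMO1, HSD17B7 and SREBF2 were called lower with TPM as deposited and not after rescaling. With factors from protein-coding genes alone, the 5 genes stayed called and IDI1 joined them at −0.21 (limma, adjusted p = 0.042). With no filter on level, SCD and ABCA1 lost their calls (limma), where 0.310% of 47371 tested genes were called lower.

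Most SREBF1 TPM was assigned to transcripts of types other than protein coding. The sum over 11 transcripts that GENCODE release 29 types as retained intron was 20.6, 24.5 and 17.9 TPM in HA-TAZ 1 to 3 and 55.6, 46.5 and 40.9 TPM in control a to c. The sum over its 7 protein-coding transcripts was 9.88, 9.65 and 10.1 TPM in HA-TAZ 1 to 3 and 15.4, 15.7 and 19.3 TPM in control a to c. Both sums were lower in each HA-TAZ library than in each control, also after rescaling, and the retained-intron sum was the larger in each library. In the mean estimated counts of the authors' deposited table a coding transcript, ENST00000261646.5, stood highest at 1889. The highest retained-intron transcript there, ENST00000469356.3, was at 187, so the larger retained-intron sum holds for TPM. With the coding transcripts of each gene alone, a setting chosen after seeing the data, SREBF1 fell by 0.43 with a standard error of 0.12 (limma, adjusted p = 0.032), where 4.11% of all genes tested in this way were called lower and 28.6% higher. Estimated counts per gene were rebuilt from TPM and the authors' mean estimated counts, also chosen after seeing the data. They gave SREBF1 −0.37 with a standard error of 0.09 (limma, adjusted p = 0.026), more than 1.5 times smaller than with TPM. In that setting INSIG1 (−0.47), SCD (−0.42) and ABCA1 (−0.39) had larger differences than SREBF1. The retained-intron transcripts with the largest negative effects in the authors' deposited table were ENST00000476994.1, with an effect of −1.14 and q = 0.00483, and ENST00000470247.1, with −0.911 and q = 0.0207, on a natural log scale. The coding transcript ENST00000261646.5 had an effect of −0.259 there with q = 0.375.

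SCD has 1 transcript, so its level does not depend on how reads were divided among isoforms. INSIG1 was carried by coding transcripts, which held 94.0 to 95.8% of its TPM in the 6 libraries. ABCA1 was likewise carried by coding transcripts, at 93.0 to 98.5% of its TPM. With estimated counts per gene, INSIG1, SCD and ABCA1 were at −0.47, −0.42 and −0.39, each called lower (limma).

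ACACA isoforms differed in direction. ENST00000394406.2, its leading transcript, was at 10.4, 10.5 and 9.54 TPM in HA-TAZ 1 to 3 and at 8.32, 9.27 and 8.16 TPM in control a to c. It made up 28.8 ± 2.76% of ACACA TPM in HA-TAZ and 15 ± 1.04% in controls (SD, n = 3 each), without overlap (exact permutation p = 0.1, the smallest this design allows). ENST00000590888.1 was at 3.42, 4.74 and 4.71 TPM in HA-TAZ 1 to 3 and at 11.6, 9.89 and 9.6 TPM in control a to c. It was the member transcript called out of 153 tested, with a difference of −0.85 and a standard error of 0.11 (limma, adjusted p = 0.0485), where 0.108% of all 57448 tested transcripts were called lower. No member transcript was called with a pseudocount of 0.1, no filter, TPM as deposited, protein-coding scaling or no trend, nor in any fit without 1 library (limma). In the authors' deposited table, ENST00000394406.2 had an effect of 0.397 (q = 1.16e-05) and ENST00000590888.1 one of −0.663 (q = 1.07e-11). With estimated counts per gene, ACACA as a whole was at −0.22 with a standard error of 0.04 (limma, adjusted p = 0.011), more than 1.5 times smaller than with TPM.

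DHCR7, whose summed TPM gave no call, also held transcripts that differed in direction. ENST00000355527.3 was at 23.5, 24.8 and 25.2 TPM in HA-TAZ 1 to 3 and at 20.8, 19.8 and 22.6 TPM in control a to c, while ENST00000527316.1 was at 6.29, 6.24 and 4.19 TPM and at 14.2, 15 and 10.2 TPM. The first was higher and the second lower in each HA-TAZ library than in each control. Their effects in the authors' deposited table were 0.379 (q = 1.33e-06) and −0.640 (q = 0.00672). With estimated counts per gene DHCR7 as a whole was called higher at 0.30 (limma, adjusted p = 0.035), more than 1.5 times larger than with TPM. That setting also called ACLY higher at 0.30 (limma, adjusted p = 0.024) and NSDHL higher at 0.26 (limma, adjusted p = 0.043). It called CYP51A1 lower at −0.18 (limma, adjusted p = 0.041), where 13.6% of all tested genes were called higher and 9.22% lower.

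**Figure D3:**
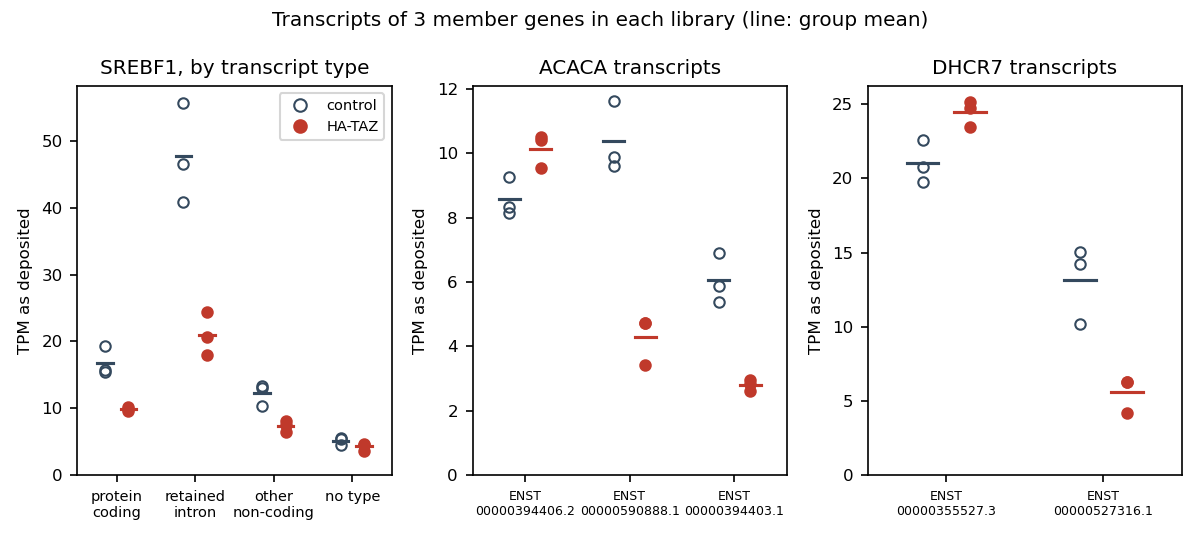
TPM as deposited in each library, with lines at group means, for SREBF1 by transcript type, for 3 ACACA transcripts and for 2 DHCR7 transcripts. The retained-intron sum of SREBF1 is at 17.9 to 24.5 TPM in HA-TAZ and 40.9 to 55.6 TPM in controls, and the leading transcripts of ACACA and DHCR7 lie higher in HA-TAZ while the others lie lower.

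Over all member transcripts, the authors' deposited table gave statistics for 265 of 370. At a q-value under 0.05 it held 10 with a negative effect (1.60% of all transcripts with statistics) and 8 with a positive effect (4.08% of all). They belong to 11 symbols, and ACLY and NSDHL each count with a pair of identical transcripts on their 2 IDs. Negative effects were those of ABCA1, ACACA, DHCR7, FDFT1, INSIG1, SCD and SREBF1 transcripts, and positive effects those of ACACA, ACLY, DHCR7, LPIN1, NSDHL and SCAP transcripts. The SCD transcript had an effect of −0.246 (standard error 0.0399, q = 1.97e-07 in the authors' deposited table). The main coding transcript of INSIG1, ENST00000340368.4, had −0.26 (q = 1.72e-04), and that of ABCA1, ENST00000374736.3, had −0.218 (q = 0.00587). The share of the leading transcript in its gene was higher in every HA-TAZ library than in every control for 6 of 30 genes (SQLE, SCAP, ACACA, NSDHL, FASN and DHCR7), and lower for none. Over all tested genes with a share to compare it was higher without overlap for 17.0% and lower for 8.63%, so the members' count of higher shares was near the background.

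The shares of transcript types within a gene stood apart between the groups for a few members. For SREBF1 the retained-intron and coding shares overlapped. Retained-intron transcripts made up 18.5 ± 0.478% of LPIN1 TPM in HA-TAZ and 22.4 ± 0.612% in controls (SD, n = 3 each), without overlap. For FASN they made up 12.7 ± 2.92% and 16.1 ± 0.961%, for ACLY 3.21 ± 0.331% and 6.75 ± 2.84%, and for IDI1 2.79 ± 0.885% and 4.12 ± 0.228% (SD, n = 3 each), also without overlap. Of 22 member genes with such transcripts, their share was lower in every HA-TAZ library than in every control for these 4 and higher for none, where over all tested genes with such transcripts it was lower without overlap for 25.4% and higher for 2.90%. Protein-coding transcripts had a higher share without overlap for 3 of 27 genes, ACLY, FASN and STARD4, and a lower one for none, against 24.4% and 3.68% of all tested genes. Neither the 4 of 22 nor the 3 of 27 was above the background share, so such shifts are not particular to the members. STARD4 transcripts of coding type held 59.2 ± 2.31% of its TPM in HA-TAZ and 54.0 ± 3.00% in controls (SD, n = 3 each). Each of these comparisons has an exact permutation p of 0.1, the smallest for 3 against 3 libraries. A share within a gene does not depend on the factor of the library. The genes were chosen after their values were seen.

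Neighbouring lipid genes were read from the same fit in 8 lists of 108 genes, of which 88 were tested, 1 called lower and 13 called higher, against the 2.63% and 4.67% of all tested genes given above and 2.18% and 7.50% of the tested protein-coding genes. Their median was 0.13, beside −0.03 over all tested genes and 0.06 over the tested protein-coding genes. The 13 genes called higher had adjusted p from 0.011 to 0.048 (limma). Of 3 further sterol synthesis genes none was called, and C14orf1, an endoplasmic reticulum protein of the sterol demethylation step now named ERG28, had the largest difference at −0.07 (limma, adjusted p = 0.545).

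Of 11 tested genes of sterol uptake and transport, 3 rose and none fell. GRAMD1A, which moves cholesterol from the plasma membrane to the endoplasmic reticulum, rose by 0.49, the lipoprotein receptor SCARB1 by 0.36 and the lysosomal lipase LIPA by 0.27. Of 9 tested genes of SREBP processing, NFYA, a subunit of the factor that binds CCAAT boxes, rose by 0.34 and none fell, and the second INSIG gene, INSIG2, was at 0.02. Of 11 isoprenoid genes, NUS1, a subunit of the dolichol synthase, rose by 0.29, and RCE1, a protease of prenylated proteins, had the largest difference at 0.30 without a call. The list of liver X receptor, oxysterol and esterification genes held 5 tested genes and no call. NR1H2, which encodes liver X receptor beta, had its largest difference at 0.38 (limma, adjusted p = 0.059), and ABCG1 was under 1 TPM on average and not tested.

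Of 20 tested further genes of fatty acid synthesis and activation, 1 fell and 3 rose. ACSL3, an acyl-CoA synthetase, was at 21.6, 23.3 and 19.1 TPM in HA-TAZ 1 to 3 and at 40.4, 37.6 and 36.6 TPM in control a to c. It fell by 0.52 with a standard error of 0.07 (limma, adjusted p = 0.0191). The malic enzyme ME1, the elongase ELOVL1 and the synthetase ACSL1 rose by 0.38, 0.35 and 0.38. SCD5, the second desaturase of the SCD kind, had the largest difference of the list at −0.55 with a standard error of 0.12 (limma, adjusted p = 0.0536). With TPM as deposited none of the 13 higher genes was called, and LIPA and NUS1 turned to −0.03 and −0.01. Without 1 library, ACSL3 stayed called when HA-TAZ 3 was left out and lost its call in the other 5 fits, and 0 to 4 genes of the lists were called higher (limma).

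In the glycerolipid list 4 of 12 tested genes rose and none fell. AGPAT9, which encodes an acyltransferase now named GPAT3, was at 5.18, 5.63 and 4.3 TPM in HA-TAZ 1 to 3 and at 3.61, 3.31 and 2.79 TPM in control a to c, apart on both scales. It rose by 0.75 with a standard error of 0.11 (limma, adjusted p = 0.0242). The acyltransferase genes AGPAT4, AGPAT3 and AGPAT6 rose by 0.56, 0.43 and 0.39. Of 17 tested genes of fatty acid oxidation, CPT1B, a carnitine palmitoyltransferase, rose by 0.39 (limma, adjusted p = 0.048). With estimated counts per gene CPT1B turned to −0.30 (limma, adjusted p = 0.193), and without any 1 library its call was lost. SLC25A20, the carnitine carrier, had the largest difference at 0.45 (limma, adjusted p = 0.0684).

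**Figure D4:**
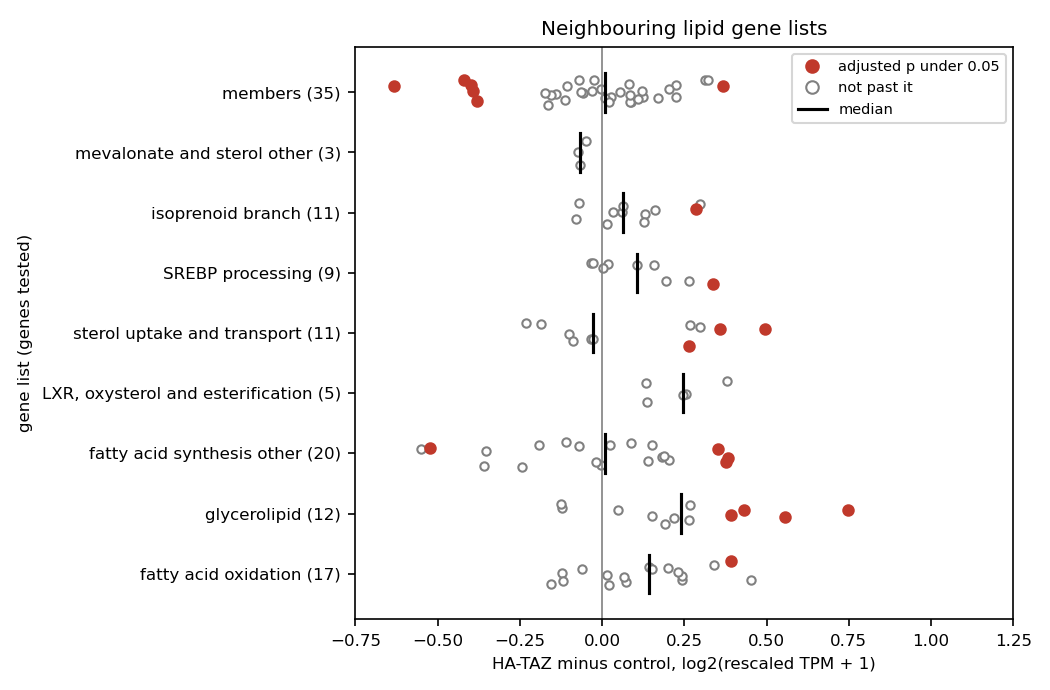
HA-TAZ minus control in log2(rescaled TPM + 1) for the 35 member IDs and the tested genes of 8 neighbouring lists, with filled points for an adjusted p under 0.05 and a bar at each median. The members hold 5 filled points below 0 and 1 above, and the glycerolipid list holds 4 above 0 and none below.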

How the data were processed

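The authors deposited TPM per transcript for 6 libraries and a table of their own transcript comparison. Per the submitters' processing notes, kallisto 0.46.0, sleuth 0.30.0 and the build GRCh37 were named, with no role or order. Per the labels' protocols, the kit was stranded, and whether quantification used strand is not given in the sources used here. In the authors' deposited table the effect and the mean are on a natural log scale, and p-values and q-values are the authors'.

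TPM was summed per gene ID and divided by median-of-ratios factors over 21512 genes. Genes with a mean of at least 1 TPM were tested on log2(rescaled TPM + 1), pseudocount 1, with limma 3.58.1 (trend, two-sided, Benjamini-Hochberg over 22651 genes, threshold 0.05) in R 4.3.3. Transcripts were tested likewise with their own factors. The limma steps were run on simulated data with independent noise for each gene and library. Those data held no reads split between IDs, so they cannot show how the steps handle such reads. Sums and figures were made in Python 3.11.15 (pandas 2.3.3, numpy 2.4.6; matplotlib 3.10.9). Single values used an exact two-sided permutation test (smallest p 0.1). TPM carries no depth, so precision came from the spread of 3 libraries.

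GENCODE release 29 gave transcript types only (326 of 370 member transcripts), and RefSeq GRCh38.p14 the promoters. Genome coordinates of GRCh37 were not used. Of the genes first listed as neighbours, 2 are not reported here. Members and lists were chosen with earlier results of these data known. Full statistics are given for called members and, per role, for the member of largest difference and that of highest TPM per gene ID. For lists the difference is given for called genes and the gene of largest difference, and the standard error or adjusted p for some of them. Genes named with values beyond this were chosen after their values were seen. Alternatives were the pseudocount, the filter on level, the scaling, the trend, sums per symbol and leaving out each library.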

Additional observations from a re-analysis of the deposited data

How the results depend on the processing

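SREBF1, INSIG1, ACACA, SCD and ABCA1 were lower in each setting tried that gave a value, and SREBF1 was called in each. Members called lower numbered 5, and 3 with no filter on level (SREBF1, INSIG1 and ACACA), 12 with TPM as deposited and 1 to 4 without 1 library. Members called higher numbered 1. They were 0 with no filter, with TPM as deposited, without the trend and with sums per symbol. They were 2 with coding transcripts only (ACLY and LPIN1), 5 with estimated counts and 0 to 1 without 1 library. Over all tested genes the share called higher was 4.67%. It was 1.16% with no filter, 1.15% as deposited, 2.04% without the trend and 5.49% with sums per symbol. With coding transcripts only it was 28.6%, with estimated counts 13.6%, and without 1 library 0.413 to 1.62%. The members' median of 0.01 became −0.057 at a mean TPM of at least 5, −0.28 as deposited and −0.065 with protein-coding scaling, and ran from −0.00040 to 0.056 without 1 library. List genes called lower numbered 1, then 5 under the stricter mean TPM filter of 5, 10 as deposited, 2 with protein-coding scaling or sums per symbol, 3 with coding transcripts only, 4 with estimated counts and 0 to 1 without 1 library. List genes called higher numbered 13, and 5 with no filter, 0 as deposited, 6 without the trend, 30 with coding transcripts only, 24 with estimated counts and 0 to 4 without 1 library. Member transcripts called lower came to 1, and to 6 where mean TPM was 5 or more and 0 with pseudocount 0.1, no filter, TPM as deposited, protein-coding scaling, no trend or 1 library left out. Leading transcripts apart in share numbered 6, and 8 to 13 without 1 library, where groups of 2 against 3 part more easily. Of all called genes, 64.0% were higher in HA-TAZ, against 7.84% as deposited and 43.5% with protein-coding scaling.

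Some members and list genes turned in sign, and of these LIPA, NUS1 and CPT1B had been called higher. As deposited, ACAT2 was at −0.22, MVK at −0.18, MVD at −0.16, FDPS at −0.22, TM7SF2 at −0.13, MSMO1 at −0.26, NSDHL (both IDs) at −0.052, EBP (both IDs) at −0.21, DHCR7 at −0.18, SREBF2 at −0.28, FASN at −0.13, FADS2 at −0.19, LPIN1 at −0.092, LIPA at −0.026 and NUS1 at −0.0075. With protein-coding scaling ACAT2 was at −0.013, MSMO1 at −0.044, SREBF2 at −0.065 and FADS2 at −0.031. With no filter SQLE was at 0.0024, ELOVL6 at 0.0082 and STARD4 at 0.028. At a mean TPM of at least 5 MSMO1 was at −0.027 and SREBF2 at −0.047. With coding transcripts only HSD17B7 was at 0.071, SREBF2 at −0.042, FADS2 at −0.054 and STARD4 at 0.11. With estimated counts ACAT2 was at −0.023, SQLE at 0.052, TM7SF2 at −0.21, SREBF2 at −0.067, SCAP at 0.14, STARD4 at 0.038 and CPT1B at −0.30. Without 1 library MVK ran from −0.035 to 0.17, MSMO1 from −0.0081 to 0.079, SREBF2 from −0.065 to 0.084, ELOVL6 from −0.12 to 0.038, FADS1 from −0.13 to 0.0042, FADS2 from −0.039 to 0.11 and STARD4 from −0.057 to 0.049. The cause was not tested. Settings with coding transcripts only and with estimated counts were chosen after seeing the data. None of the 26 deposited transcript IDs of ACACA was found in GENCODE release 29, so ACACA had no value with coding transcripts only. No paired analysis was possible because nothing links a given control column to a given wild type sample, and the labels tie replicate numbers to no shared culture or date. TPM holds no read depth, so counting error of low genes such as FADS2 could not be separated from the spread between libraries.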
